A study of Mus musculus with 3 samples.

Results

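MYC peaks that were called in vector cells and met no peak of the POH1-Flag cells numbered 1492. They are the peaks of the vector MYC list on chromosomes 1 to 19 or X that share no base with a MYC peak or a Flag peak of the POH1-Flag cells. The vector list held 11925 peaks on these chromosomes, of which 12.5% (11.9 to 13.1%, Wilson 95% interval) were vector-only. A further 9279 overlapped a MYC peak of the POH1-Flag cells alone, 329 a Flag peak alone and 825 both. They were chosen by where peaks were called in the 3 lists, so their absence from the other lists is a description and carries no test.

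The signal was mapped by CUT&Tag, which reads out DNA cut by a transposase that antibodies tether to a chromatin protein. The targets were MYC and the Flag tag in Pan02 cells with stable POH1-Flag, and MYC in Pan02 cells with the vector. Pan02 cells derive from a pancreatic ductal adenocarcinoma of the mouse, and POH1 is the deubiquitinase of the proteasome lid. Each group had 1 library, and whether the cells were a clone or a pool is not given in the sources used here. Intervals therefore hold the counting error of a single library alone, and differences between POH1-Flag and vector cells have no replicate check. The background per kb, the measure of depth the lists allow, was 4.09 reads for MYC and 4.06 for Flag in POH1-Flag cells, against 3.86 for MYC in vector cells.

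MYC is a transcription factor that pairs with MAX and binds the E-box, with CACGTG as its preferred form, mostly at active promoters where chromatin is open. At high MYC levels it also occupies weaker sites at other promoters and enhancers. A peak far from genes can mark an enhancer, and a weak peak in a single library can also come from the spread of background cuts.

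Few of the vector-only peaks lay at gene starts with an E-box, and the promoters of Tubb5, Pus3 and Hcfc2 are shown because a CACGTG lies inside the vector-only peak there. Hspa1a is shown as the gene with the largest −log10 q among named protein-coding genes with a vector-only summit within 250 bases before the gene start, at a promoter without this motif and with no other MYC peak near its ends. Tubb5 encodes a β-tubulin, Pus3 a tRNA pseudouridine synthase, Hcfc2 a host cell factor and Hspa1a the inducible chaperone HSP70. The sequences are the 250 bases before the gene start in RefSeq's GRCm38.p6 promoter table, with CACGTG in capitals. They are chr17:35838302-35838551 on the minus strand for Tubb5, chr9:35558310-35558559 on the plus strand for Pus3, chr10:82698864-82699113 on the plus strand for Hcfc2 and chr17:34972157-34972406 on the minus strand for Hspa1a.
Tubb5: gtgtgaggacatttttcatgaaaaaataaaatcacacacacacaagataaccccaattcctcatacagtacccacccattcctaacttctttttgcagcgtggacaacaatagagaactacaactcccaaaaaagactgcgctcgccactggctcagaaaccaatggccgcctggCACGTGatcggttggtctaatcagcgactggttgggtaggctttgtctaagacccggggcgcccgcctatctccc
Pus3: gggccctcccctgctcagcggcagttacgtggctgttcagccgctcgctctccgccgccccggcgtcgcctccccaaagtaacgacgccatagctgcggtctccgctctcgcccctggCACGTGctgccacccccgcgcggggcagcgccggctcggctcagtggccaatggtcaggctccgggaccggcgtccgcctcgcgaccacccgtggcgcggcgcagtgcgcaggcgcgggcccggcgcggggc
Hcfc2: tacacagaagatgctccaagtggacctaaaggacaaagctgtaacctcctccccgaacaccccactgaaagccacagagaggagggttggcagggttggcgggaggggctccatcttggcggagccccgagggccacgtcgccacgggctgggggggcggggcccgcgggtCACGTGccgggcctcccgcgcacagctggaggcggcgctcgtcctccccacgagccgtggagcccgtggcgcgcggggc
Hspa1a: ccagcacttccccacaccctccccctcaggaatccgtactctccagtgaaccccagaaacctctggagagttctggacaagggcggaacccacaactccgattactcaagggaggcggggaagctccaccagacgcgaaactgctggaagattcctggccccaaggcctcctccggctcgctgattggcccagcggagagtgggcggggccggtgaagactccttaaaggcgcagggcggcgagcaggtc

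At Tubb5 the motif begins 75 bases before the gene start. Its last base, the one nearer the start, lies 82 bp from the summit of a vector-only peak of 14 reads. At Pus3, which shares its start region with the testis helicase gene Ddx25, the motif begins 132 bases before the start and 78 bp from a summit of 8 reads. Hcfc2 has 2 starts in the table that meet the peak, and the sequence shown ends at the one farther into the gene. The motif begins 79 bases before that start, past the other one, and 57 bp from a summit of 7 reads. These promoters were not without MYC peaks of POH1-Flag cells nearby. Such a peak of 14 reads lay 892 bp from the vector-only peak at Pus3, and one of 10 reads 524 bp away at Hcfc2. At Tubb5 the nearest, of 44 reads, lay 2611 bp away and overlapped another vector MYC peak. Across the table, 75 promoter windows of 300 bases, from 71 genes, met a vector-only peak, and 7 of them (9.33%, 4.59 to 18.0%) held CACGTG, which reads the same on both strands. Windows can overlap, and 1 motif can be counted more than once. The windows of Ddx25 and Pus3 hold the same CACGTG, as do both windows of Hcfc2, whereas the intervals treat windows as independent. The share with CACGTG was 12.8% in the 6152 windows that met another vector MYC peak, and 7.20% in all 32619 windows. The related hexamer CACGCG, searched on both strands, was in 20% (12.5 to 30.4%) of the windows with a vector-only peak, in 23.0% of those with another vector peak and in 9.33% of all windows. A window can hold both hexamers, and the median GC content was 61%, 64% and 53% in these sets. With 75 windows, a difference in CACGTG from either set was not detectable, and a match describes the letters and not a bound site. The table holds no windows of chromosome 18, which was not used for starts and motifs.

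Vector-only peaks lay mostly away from gene ends. Of the 1492, 130 (8.71%, 7.39 to 10.3%) had their summit at most 1 kb from the start or end of a protein-coding gene, 545 (36.5%, 34.1 to 39.0%) lay inside a gene but farther from its ends, and 817 (54.8%, 52.2 to 57.3%) lay between genes. Among the 10433 other vector MYC peaks the shares were 50.5%, 24.3% and 25.2%. The median distance from summit to gene end was 39758 bp (35307 to 44882) for vector-only peaks and 935 bp (814 to 1060) for the others. A distance over 100 kb from any gene end was found for 32.0% (29.7 to 34.4%) of the vector-only peaks and for 8.50% (7.98 to 9.05%) of the others.

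**Figure D1:**
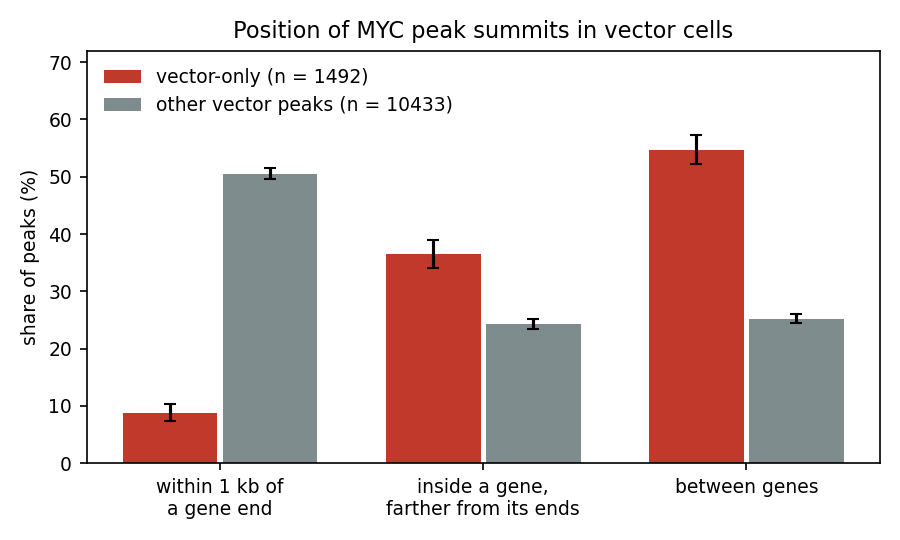
Share of MYC peak summits in vector cells by position, as percent of vector-only peaks (red) and of the other vector peaks (grey), with Wilson 95% intervals. Gene ends hold 8.71% of the vector-only peaks and 50.5% of the others.

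Strand is known for the starts in the promoter table, which has a start for 17492 of the 21887 protein-coding genes. Starts missing from it are not counted, so the shares near starts can be too low in both sets. Within 250 bp of such a start lay 3.64% (2.79 to 4.73%) of the vector-only summits and 38.2% (37.3 to 39.2%) of the other vector summits. Even among gene-end peaks the vector-only summits sat less tightly, with a median of 309 bp (199 to 411) from the end against 140 bp (136 to 144). Of the vector-only gene-end peaks 66.4% (57.7 to 74.1%) had an annotated start within 1 kb, and of the other gene-end peaks 82.7% (81.6 to 83.7%).

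The vector-only peaks were weak and narrow. Their summit pileup, the number of overlapping reads solved from the authors' fold and −log10 p, ran from 6 to 31 reads with a median of 10. Among the other vector peaks it ran from 6 to 390 with a median of 15. Medians for the authors' fold enrichment were 4.58 (4.54 to 4.64) and 5.41 (5.38 to 5.43), and for their −log10 q 3.58 and 5.83. The median width was 252.5 bp (247 to 257) against 429 bp (424 to 432), and 31.6% of the vector-only peaks had the smallest width in the list, 219 bp, against 6.41% of the others. Of the vector-only peaks 12 reached a −log10 q of 10. The background under them was low as well, with a median of 1.29 reads (1.27 to 1.34) against 1.80 (1.77 to 1.82).

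**Figure D2:**
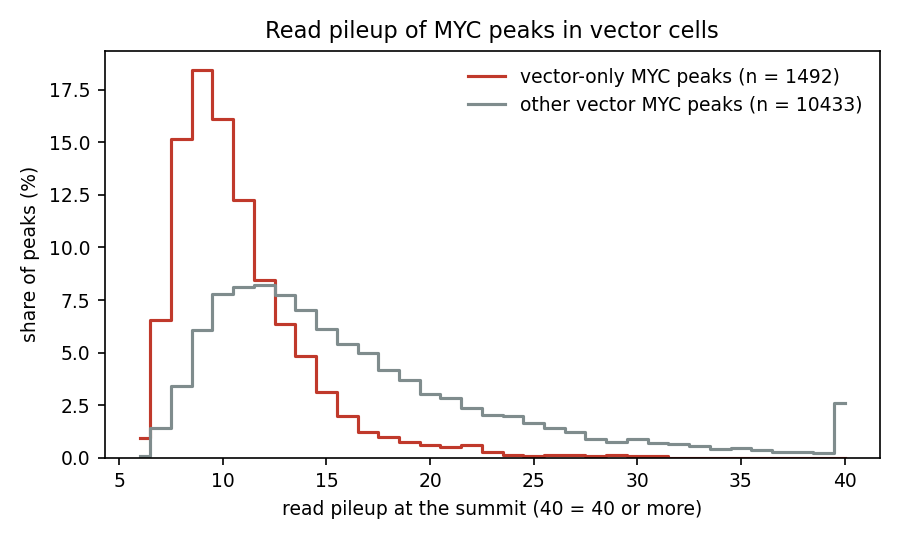
Distribution of the summit read pileup, in reads, as percent of vector-only MYC peaks (red, n = 1492) and of other vector MYC peaks (grey, n = 10433). The medians are 10 and 15 reads, and no vector-only peak exceeds 31.

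Within ranges of pileup, vector peaks at gene ends were vector-only less often than vector peaks elsewhere. Among vector peaks of up to 9 reads, 9.58% (7.34 to 12.4%) of those at gene ends were vector-only, against 40.2% (36.1 to 44.4%) inside genes and 49.5% (45.8 to 53.2%) between genes. At 10 to 14 reads the shares were 2.98%, 21.5% and 26.3%, and at 15 or more reads 0.671%, 4.24% and 6.95%. These intervals hold the counting error of a single library alone. The range of 15 or more reads is open, and peak width was not matched. Over all positions the share went down with the pileup, from 41.6% (35.9 to 47.6%) at 6 to 7 reads to 0.255% (0.0699 to 0.924%) at 30 or more.

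A site below the limit of the POH1-Flag list is not listed there, so absence from it does not measure how far the MYC signal differed. The lowest −log10 p of that list was 3.59. At the background of each vector-only peak, scaled to the POH1-Flag library, this limit corresponds to a median of 7 reads, with a range of 5 to 20. The limit takes the local background as equal in both lines and leaves out the caller's demand on peak width. The ratio of the highest pileup below the limit in POH1-Flag cells to the pileup in vector cells had a median of 0.597. Its exact conditional Poisson 95% interval lay below 1 at 23 of the 1492 peaks (1.54%). Among the 10104 vector peaks that overlap a POH1-Flag MYC peak, the interval of the measured ratio lay below 1 at 0.129%, and the median ratio was 1.56. The rule chose the vector-only peaks on this contrast, and the shared peaks enter only where a POH1-Flag MYC peak was called. Where a vector peak overlapped several POH1-Flag MYC peaks, the one with the most reads was taken. Nothing is therefore read from either share or from the median ratio of 1.56. At the other 1469 vector-only peaks the highest pileup below the limit lies within counting error of the vector pileup. Smaller pileups, which the list does not give, could lie outside it, so the lists do not settle whether the signal differed there. All 23 lay away from gene ends, 11 inside genes and 12 between them, and of all vector-only peaks 8.71% lay at gene ends.

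By the authors' −log10 q, the strongest vector-only peak lay inside Ano2, a calcium-activated chloride channel gene, at chr6:125876866-125877232 on GRCm38. The highest pileup below the limit in POH1-Flag cells there was 6 reads, against 27 in vector cells, a ratio of at most 0.227 (0.0768 to 0.562). The nearest MYC peak of POH1-Flag cells was 365472 bp away. Next came a peak inside Polq, which encodes the DNA polymerase of theta-mediated end joining, and a peak 926605 bp from Bcl11a, a zinc-finger repressor gene. At both, the highest pileup below the limit in POH1-Flag cells was 5 reads, against 22 reads in vector cells. The ratio there was at most 0.233 (0.0688 to 0.629).

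Of the remaining strong peaks, those nearest Marcks, a gene for an actin-binding substrate of protein kinase C, and inside Camk1d, a calmodulin-dependent kinase gene, had 19 reads each in vector cells. Arhgap15, a gene for a GTPase-activating protein of Rac, held a peak of 20 reads, Ern1, which encodes the unfolded protein sensor IRE1α, a peak of 18, and the endosomal syntaxin gene Stx12 and the protease gene Tasp1 peaks of 16 each. The highest pileup below the limit in POH1-Flag cells was 5 or 6 reads at each of these 6. The upper bounds of the ratio ran from 0.746 to 0.913. None of the 10 strongest peaks lay within 1 kb of a gene end, where 8.71% of all vector-only peaks lay. The closest, at Stx12, was 8172 bp from one.

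One of the 10 lies downstream of Myc, at chr15:62568951-62569849. Myc was the nearest protein-coding gene, at 578984 bp. The highest pileup below the limit was 8 reads in POH1-Flag cells, against 23 in vector cells. The ratio was at most 0.356 (0.138 to 0.824). The gap to the nearest MYC peak of POH1-Flag cells was 67537 bp. These 10 peaks were chosen for strength in vector cells, a choice that favours low ratios.

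**Figure D3:**
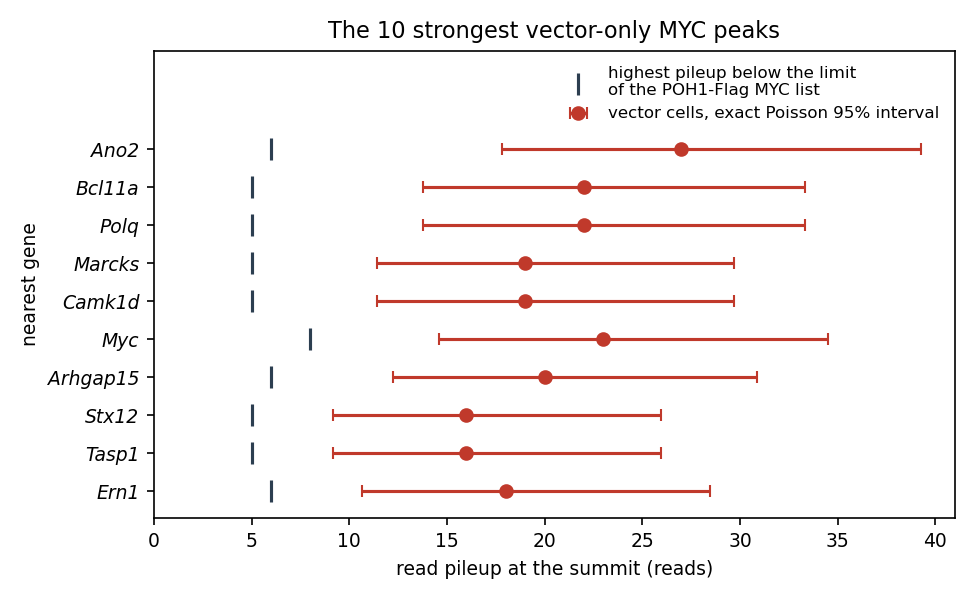
The 10 vector-only peaks with the largest −log10 q, by nearest named gene. The bar marks the highest pileup below the limit of the POH1-Flag MYC list and the point the pileup in vector cells with its exact Poisson 95% interval, both in reads. The bars lie at 5 to 8 reads and the points at 16 to 27.

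Vector-only peaks near gene ends touched 149 of 21887 protein-coding genes, 0.681% of them, where 28.2% had any vector MYC peak near an end. Of the 149 genes, 34 had both another vector peak and a POH1-Flag MYC peak near an end and 31 had a POH1-Flag MYC peak only. At 84 (56.4%, 48.4 to 64.1%) neither line had any MYC peak within 1 kb of an end other than vector-only ones. Among all 21887 protein-coding genes, 8755 had a POH1-Flag MYC peak near an end, so most genes lacked one. The 84 are therefore not read as a distinct group. With the POH1-Flag MYC list cut to the length of the vector list, 679 genes had a vector-only peak near an end. These 84 genes shared 79 peaks of 7 to 22 reads, and none had a ratio interval below 1. At 8 of the 79 peaks a POH1-Flag MYC peak lay within 1 kb of the peak itself, though beyond the limit around the gene end, and at 53 the gap was over 10 kb.

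The largest −log10 q at a gene end, 7.25, belonged to a peak 980 bp from Vmn1r48, a vomeronasal receptor gene. In POH1-Flag cells the highest pileup below the limit was 6 reads, against 14 in vector cells. Neither line had another MYC peak near this gene. Hspa1a shares its peak with Hspa1l, a related chaperone gene on the other side of it. Its summit lies 77 bp before the start of Hspa1a, inside the sequence shown. The highest pileup below the limit was 5 reads in POH1-Flag cells, against 12 in vector cells (ratio at most 0.426, 0.118 to 1.30). C1qtnf6, a gene for a secreted C1q-related protein, had the same values at a summit 55 bp from its end. Hes7, a repressor gene of the segmentation clock, had a POH1-Flag MYC peak of 24 reads 774 bp from a vector-only peak of 22, with its summit over 1 kb from the gene's ends.

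Other gene-end peaks lay beside a MYC peak of POH1-Flag cells with more reads. Ftsj3, for ribosomal RNA processing, and Psmc5, an ATPase gene of the proteasome base, have neighbouring starts. Near their ends POH1-Flag cells had a MYC peak of 27 reads, 42 bp from the vector-only peak, and vector cells had the vector-only peak of 16 reads and another of 14. At the phospholipase gene Pla2g6 the POH1-Flag peak had 67 reads, against a vector-only peak of 25 and another vector peak of 45. At the histone H4 gene H4c17 it had 35 reads, against 31 and 28. The small membrane protein gene Smim27 had 34 reads in POH1-Flag cells, against 14 and 18. At each of these genes the upper limit of the ratio was above 1.

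The genes that held vector-only peaks were long. The 510 genes with a vector-only peak inside, away from gene ends, had a median length of 131 kb (117 to 148), against 61.2 kb (57.3 to 65.3) for the 2019 genes with another vector peak in the same position and 17.2 kb for all protein-coding genes. A longer gene offers more bases for a peak, and density per base was not tested. A summit inside was found for 603 genes, 2.76% of all, gene-end peaks included. Named genes with the most, 3 each, were 8. They were Dmd, which encodes dystrophin, Dpp10, a subunit gene of potassium channels, Lrp1b, of the LDL receptor family, Lrrc4c, a netrin-G ligand gene, Nckap5, the RNA-binding protein gene Rbms3, the G protein regulator gene Rgs7 and the sperm axoneme gene Spag16. Dmd spans 2390 kb and Rgs7, the shortest, 434 kb.

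At 3 of these genes, Lrrc4c, Rbms3 and Rgs7, the POH1-Flag cells had no MYC peak anywhere inside. The vector-only peaks there had 8, 10 and 10 reads at Lrrc4c, 6, 7 and 12 at Rbms3 and 9, 10 and 10 at Rgs7. Inside Rgs7 the vector list held 2 more peaks, which were not vector-only. By the rule, each of these 2 shares at least a base with a Flag or MYC peak of the POH1-Flag cells. At Dpp10 the POH1-Flag list held 7 MYC peaks, against 3 vector-only peaks and 1 other in vector cells, and at Lrp1b it held 8, against 3 and 4. Dmd had 4 in POH1-Flag cells, against 3 and 1. Nckap5 and Spag16 had 2 each in POH1-Flag cells, against 3 vector-only peaks each in vector cells and 3 others at Nckap5. The pileups of the vector-only peaks were 8, 11 and 12 reads at Dmd, 9, 11 and 13 at Dpp10, 9, 9 and 13 at Lrp1b, 10, 12 and 13 at Nckap5 and 9, 11 and 12 at Spag16. No vector-only peak in these 8 genes passed 13 reads.

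Of 14 gene lists, 2 had members with a vector-only peak near an end. They were the proteasome (Psmc5, 1 of 38 genes) and ductal markers (2 of 10), against 0.681% of all genes. The ductal genes were Sox9, a transcription factor gene of ductal cells, where POH1-Flag cells had a MYC peak of 10 reads and vector cells the vector-only peak of 11, and the mucin gene Muc1, with 20 reads in POH1-Flag cells and 13 in vector cells. Both therefore had a MYC peak near an end in POH1-Flag cells too. The MYC network (0 of 13), core MYC targets (0 of 30), cancer drivers (0 of 18), YAP, TEAD and AP-1 genes (0 of 22) and listed histones (0 of 18, without H4c17) had none. Some vector MYC peak lay there at 27 of the 30 core targets and 14 of the 18 histone genes. Epithelial and mesenchymal (0 of 20), acinar (0 of 14), endocrine (0 of 12), neuronal (0 of 30), T cell (0 of 10), macrophage (0 of 10) and fibroblast genes (0 of 10) had none either. With a share of 0.681% among all genes, lists this short cannot show a lack, and nothing is read from these counts of 0.

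Inside genes, the list of neuronal adhesion, synapse and channel genes held vector-only peaks at 10 of 30 members, against 2.76% of all genes. This list was made of very long genes, with earlier results of these data known, and length was not matched. The count is therefore not read as an enrichment. They included Ctnna2, Ctnna3, Dmd, Grm7, Kcnip4, Lrp1b, Pcdh9, Ptprd and Sgcz, with a highest pileup of 13 reads, at Lrp1b. In the other lists Zeb1 and Prrx1, both mesenchymal transcription factor genes, had peaks of 8 and 11 reads inside. The cyclin D2 gene Ccnd2 had 8 reads, the proteasome lid gene Psmd8 14 and the macrophage receptor gene Mrc1 12, and the peak counted near Sox9 lay inside that gene.

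The distance to the nearest MYC peak of POH1-Flag cells had a median of 38620 bp (33482 to 44436), with quartiles of 8503 and 125574 bp. Within 100 bp lay 41 of the vector-only peaks, within 1 kb 189 (12.7%, 11.1 to 14.5%), within 10 kb 402 (26.9%) and beyond 100 kb 442 (29.6%, 27.4 to 32.0%). Gene-end peaks were closest, with a median gap of 5093 bp (1354 to 11283), against 29226 bp (24171 to 39478) inside genes and 58507 bp (48603 to 67894) between genes. The nearest Flag peak was farther, at a median of 308966 bp (280625 to 344284), and 50 peaks had one within 1 kb. The POH1-Flag cells had 22241 MYC and 2805 Flag peaks on these chromosomes, and a shorter list leaves longer gaps.

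**Figure D4:**
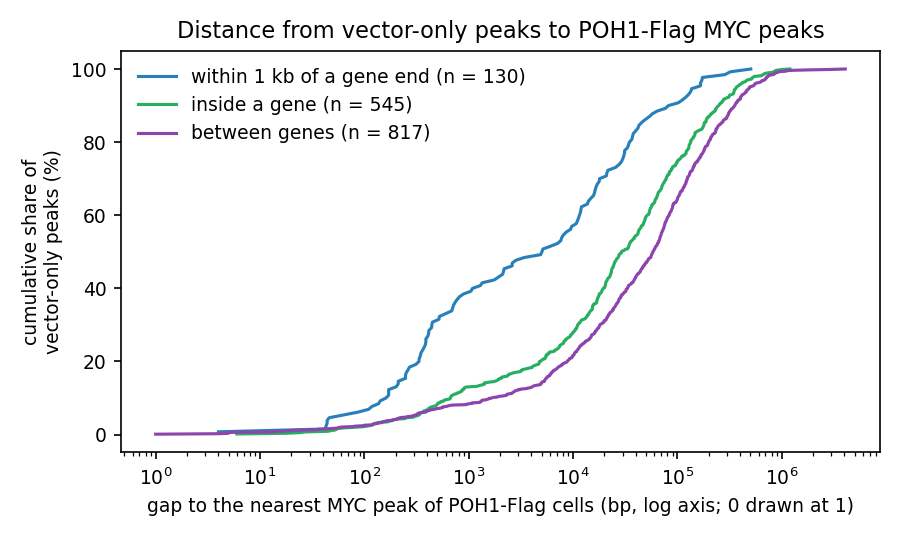
Cumulative percent of vector-only peaks by the gap in bp, on a log axis, to the nearest MYC peak of POH1-Flag cells, split by position. The curve of gene-end peaks lies left of the others, with medians of 5093, 29226 and 58507 bp.

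Around the 189 vector-only peaks with a gap of up to 1 kb, the neighbouring MYC peak in POH1-Flag cells had a median of 15 reads, against 11 for the vector-only peak. At 79 of them (41.8%, 35.0 to 48.9%) that neighbour overlapped another vector MYC peak, and the share was 38.5% at gaps of 1 to 10 kb, 38.6% at 10 to 100 kb and 33.0% beyond. Of these 189, 26.5% (20.7 to 33.2%) were at gene ends, whereas of the 442 peaks with a gap over 100 kb 2.94% (1.73 to 4.97%) were. The far peaks had a median of 9 reads and a background of 1.10 reads, against 11 and 1.77 for the near ones.

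The rule turns on a single base. The 12 vector-only peaks with a gap of up to 20 bp had a median of 11.5 reads, and the 26 vector peaks that overlap a POH1-Flag MYC peak by up to 20 bp and meet no Flag peak had a median of 10. The smallest gap was 0 bp, at a peak 106574 bp from the receptor phosphatase gene Ptprk, where a POH1-Flag peak of 10 reads adjoins a vector-only peak of 9. Gaps of 4 bp separated a POH1-Flag peak of 36 reads from a vector-only peak of 15 near the formin gene Inf2, and one of 19 reads from a vector-only peak of 14 at Vars2, the mitochondrial valyl-tRNA synthetase gene. Gaps of 5 bp were found near the fibromodulin gene Fmod (12 reads in POH1-Flag cells, 16 in the vector-only peak) and near Mocs2, of molybdenum cofactor synthesis (9 and 9 reads).

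Vector-only peaks were unevenly spread over the chromosomes. On chromosome X 32.1% (67 of 209, 26.1 to 38.7%) of the vector MYC peaks were vector-only. On chromosomes 1, 2 and 3 the shares were 18.9% (196 of 1035), 15.4% (154 of 998) and 19.7% (153 of 775). On chromosomes 4 to 19 they lay between 8.16%, on chromosome 19, and 13.2%, on chromosome 14. Chromosomes 1 to 3, grouped after their shares were seen, held 503 vector-only peaks, a share of 17.9% (16.5 to 19.4%), against 10.4% (9.73 to 11%) for chromosomes 4 to 19.

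Other values also differed between these groups of chromosomes. Over the groups, the Flag peaks per vector peak and, inversely, the gene-end share followed the order of the vector-only shares. Among single chromosomes neither order held throughout. Chromosome 3 had 0.356 Flag peaks per vector peak and chromosome 1 had 0.433, at vector-only shares of 19.7% and 18.9%. Gene-end shares were 8.16% on chromosome 14 and 4.26% on chromosome 16, at vector-only shares of 13.2% and 12.4%. The vector-only peaks had a median background of 1.45 reads on chromosomes 1 to 3, against 1.23 on chromosomes 4 to 19, and 1.01 on X. For each vector MYC peak there were 0.389 Flag peaks on chromosomes 1 to 3, 0.684 on X and 0.176 on chromosomes 4 to 19. The MYC peaks of POH1-Flag cells per vector MYC peak were 1.75 on chromosomes 1 to 3, 2.25 on X and 1.89 on chromosomes 4 to 19. Near a gene end were 4.97% of the vector-only peaks on chromosomes 1 to 3, 1 of 67 on X and 11.3% on chromosomes 4 to 19. The part of background, copy number or gene density in the uneven spread was not tested.

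**Figure D5:**
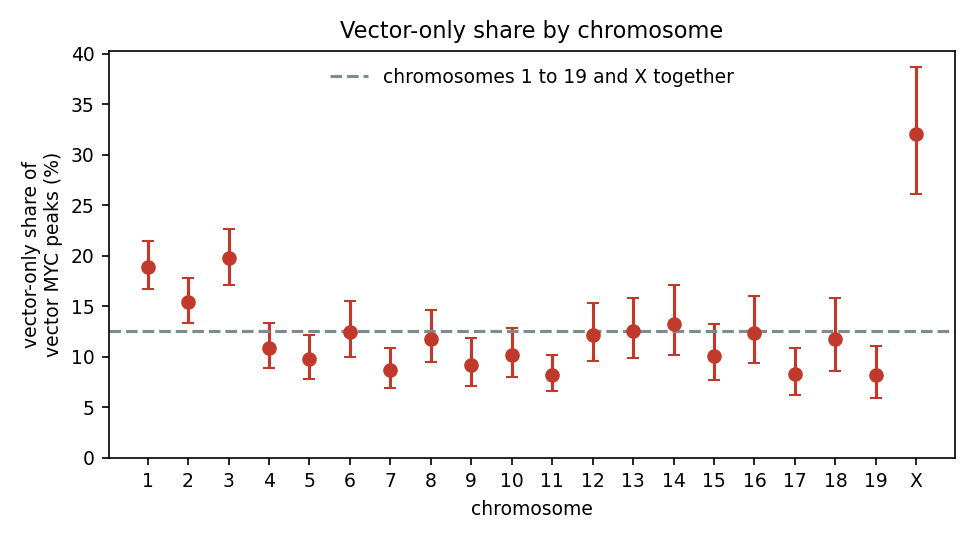
Vector-only share of the vector MYC peaks by chromosome, in percent with Wilson 95% intervals. The dashed line is the share of 12.5% over all these chromosomes. Chromosome X and chromosomes 1 to 3 lie above it.

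Vector-only peaks rarely stood together. The median gap between one and the next nearest was 551895 bp, and 42 (2.82%, 2.09 to 3.78%) had another within 10 kb.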

How the data were processed

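CUT&Tag peak lists of 3 libraries were used, with 1 library per group taken from the sample titles. Per the submitters' processing notes, the tools were BWA 0.7.17-r1188 and MACS2 2.2.7.1, beside FastQC 0.11.9 and Trim Galore 0.6.6, with GRCm38/mm10 and no parameters. Use of a control library, a blacklist or duplicate removal is not given in the sources used here. The deposited lists give each peak's start, end and summit offset in bp, the authors' fold enrichment (a ratio), −log10 p and −log10 q, and a score, which was not used.

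The whole read pileup and background at each summit were solved from fold = (pileup + 1)/(background + 1) and the Poisson tail, and 100% of pileups came out whole (within 0.01 reads). The steps were tested on simulated data. The lowest background per smallest peak width served as depth. PCR duplicates that were kept would make intervals too narrow. Overlap meant 1 shared bp. Shares carry Wilson 95% intervals and medians order-statistic intervals. With 1 library per group no test between lines was possible.

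Genes came from RefSeq GRCm38.p6, without exons. Of 257 list entries 255 matched by symbol. Named genes were those nearest the 10 strongest and 5 nearest peaks, the 10 strongest at gene ends, the 8 with most peaks inside, and list members with a gene-end peak, leaving out predicted genes. Genes of the promoters shown, list members with a peak inside only and the chromosome 1 to 3 group were chosen after their values were seen. Members and lists were chosen with earlier results of these data known. Python 3.11.15 and scipy 1.17.1 were used. Alternatives were stricter thresholds, other overlap rules, other partner lists, wider gene ends, summit distances, other chromosomes.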

Additional observations from a re-analysis of the deposited data

Results flagged for a closer look

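Outside the chromosomes described above, on unplaced contigs and Y, 33 of 250 vector MYC peaks also met no peak of the POH1-Flag cells, set beside 1492 of 11925 on chromosomes 1 to 19 and X. They are given here because they lie outside the comparisons above. Of these, 12 were on Y. They had pileups of 7 to 115 reads, and no control library was available to set beside them.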

How the results depend on the processing

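With a −log10 q of at least 5, 309 vector-only peaks remained, with 6.15% at gene ends, 23 such genes and a median pileup of 13 reads. With a fold of at least 5 there were 481, with 4.78%, 27 genes, 11 reads and a median gap of 47041 bp. Other vector peaks at these limits had 54.3% and 55.6% at gene ends. With a POH1-Flag MYC list as long as the vector list there were 2830, with 21.3%, 679 genes and 54491 bp. Counting as partners only peaks that cover 0.5 or more of a vector peak's length gave 13.9%, 305 genes and 19261 bp. Counting peaks within 500 bp as partners gave 6.80% and 49140 bp. Without the Flag list the gene-end share was 7.30%. Gene ends of 2000 and 5000 bp gave 12.5% and 16.8% (other vector peaks 55.2% and 61.3%), the wider with 324 genes. Chromosomes 4 to 19 alone, added after the data were seen, held 922 peaks, with 11.3% and 28060 bp. The wider gene ends count more of the same 1492 peaks by construction, and for the other shifts the cause was not tested. The gene-end share of vector-only peaks stayed below that of other vector peaks wherever both were computed. The other 16 values stayed within the interval or within 1.5 times. No paired analysis was possible because each group had 1 library. A median pileup of 10 reads limits what a single peak can show.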

Other observations

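Other kinds of genes were seldom near the vector-only peaks. Of the 1362 away from protein-coding gene ends, 33 (2.42%, 1.73 to 3.38%) had their summit within 1 kb of an end of a lncRNA gene, against 7.57% (6.88 to 8.33%) of 5163 other vector peaks in such positions. Near tRNA genes were 4 and 40 peaks (0.294% and 0.775%), near snRNA genes 0 and 36, and near pseudogenes 12 and 42 (0.881% and 0.813%). The count of 0 of 1362 allows a share of up to 0.281% by the Wilson interval.

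In 3 places 3 or more vector-only peaks followed each other with gaps of up to 50 kb. On chromosome 8, at chr8:20648134-20706728 near the β-defensin gene Defb33, 4 peaks had 19 to 24 reads over a background of 5.54 to 5.76 reads. On chromosome 1, 3 peaks of 10 to 14 reads lay nearest Phf3 and 3 of 12 to 16 reads near Prelp and Fmod.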
